A study of Mus musculus with 12 samples.

Results

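The enzymes and carriers that take glucose to pyruvate, and pyruvate through the tricarboxylic acid (TCA) cycle, were examined in mouse oocytes across the pubertal transition. The set had 42 member genes, chosen by name from a list of these pathways, among the 24562 genes of the count table. They comprised 2 glucose transporters, 15 glycolytic enzymes, 4 lactate and monocarboxylate genes, 9 genes of pyruvate use and 12 TCA cycle enzymes. A filter on low counts left 13943 genes for testing, among them 37 of the 42 members. The 5 that did not pass were the glucose transporter Slc2a3 and the glycolytic enzymes Gapdh, Pgam1, Eno1 and Eno2.

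Ribosomal RNA-depleted total RNA was sequenced from oocytes of CD-1 mice, an outbred stock, in 4 cohorts named by postnatal day (PND). Beside PND 13 and PND 40 mice there were 2 cohorts of PND 16 mice, small and large, which were of the same age and were divided by body weight. Each cohort had 3 pools, and a pool held between 18 and 45 oocytes from antral follicles of unstimulated ovaries, so a value describes a pool and not a single cell. Following the study's grouping, PND 16 large and PND 40 are called competent, and PND 13 and PND 16 small non-competent. The names refer to the ability to complete meiotic maturation. For the PND 16 weight groups the paper did not show its maturation data, as each group had only 2 mice. It gives no maturation result for the sequenced pools. The labels give no treatment and no altered allele for any cohort.

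Growing and fully grown oocytes are known to use glucose poorly. The cumulus cells that surround them carry out most glycolysis and pass pyruvate to the oocyte through gap junctions and the extracellular space, and the oocyte oxidizes that pyruvate in its mitochondria. Pyruvate enters the matrix through the mitochondrial pyruvate carrier. The pyruvate dehydrogenase complex then converts it to acetyl-CoA, pyruvate dehydrogenase kinases switch that complex off, and pyruvate carboxylase provides the alternative entry as oxaloacetate.

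Oocyte markers were abundant in every pool, with 12 markers summing to between 15860 and 20400 CPM, the count per library size, here scaled by the trimmed mean of M values. Total counts ran from 17671193 to 27418358 per pool, and the members took between 0.326% and 0.398% of them. Pools differed in the markers of granulosa and cumulus cells, all 19 of which were detected in every cohort. PND 13 replicates 1 and 3 and PND 16 small replicate 2 had summed marker levels of 819 to 991 CPM, against 428 to 576 CPM in the other 9 pools. Their mean log2 CPM over the markers, the marker level used in the fits below, was 4.34 to 4.51, against 1.07 to 2.83. The markers did not all differ alike. Inha was at 97.0, 143 and 130 CPM in these 3 pools and at 2.34 to 20.7 CPM elsewhere. Serpine2, a large part of each sum, was at 199 to 237 CPM in them and at 224 to 331 CPM elsewhere, and Cyp19a1 overlapped. The lowest marker level was that of PND 13 replicate 2, and all 3 pools with high levels were non-competent. Markers of theca cells summed to 4.03 to 53.6 CPM. The highest sums were in the same 3 pools and came from 1 gene, Hsd3b1. It was at 41.2 and 50.1 CPM in PND 13 replicates 1 and 3, at 28.5 CPM in PND 16 small replicate 2 and at 1.37 to 3.26 CPM elsewhere. The remaining theca markers were each at most 5.79 CPM, and Cyp11a1 was highest at PND 40. Blood markers summed to at most 0.426 CPM with at least 4 of 5 at 0 in each cohort. In such pools, fewer cells of a type and less RNA per cell cannot be told apart.

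Levels between genes were compared per kilobase of transcript (CPM per kb, mean of 12 pools). Lactate dehydrogenase B, Ldhb, was far above the other members at 924 CPM per kb. The most abundant member of the glycolytic enzymes was pyruvate kinase, Pkm, at 118 CPM per kb, and that of the TCA cycle was citrate synthase, Cs, at 97.8 CPM per kb. Among the genes of pyruvate use, dihydrolipoamide dehydrogenase, Dld, led at 74.3 CPM per kb and the pyruvate dehydrogenase subunit Pdha1 followed at 58.8 CPM per kb. The glucose transporter Slc2a1 (GLUT1) stood at 18.6 CPM per kb. At the low end of the members tested were the hexokinases, with Hk2 at 1.34 CPM per kb and Hk1 at 0.310 CPM per kb. The TCA cycle enzyme Idh2 at 1.24 CPM per kb and the pyruvate carrier subunit Mpc1 at 0.717 CPM per kb lay between them. Aldoc at 0.152 CPM per kb and Slc16a7 at 0.123 CPM per kb were lower still. Phosphoglycerate kinase, Pgk1, had 0.902 CPM per kb, a value put in doubt below by shared windows.

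Several glycolytic enzymes were close to 0. Glyceraldehyde-3-phosphate dehydrogenase, Gapdh, had at most 4 counts in any pool, and enolase 1, Eno1, had 0 counts in all 12. Phosphoglycerate mutase, Pgam1, had between 1 and 13 counts. Enolase 2, Eno2, had 33 counts in PND 16 large replicate 2 and 0 to 9 counts in the other pools. Gapdh, Eno1 and Pgam1 have near-identical copies elsewhere in the mouse genome, so their reads may be shared with a copy, and how such reads were treated is not given in the sources used here. Of all 50-base windows of the Gapdh transcript, 50 bases being the length of the reads, 9.56% occurred in no other annotated gene on either strand. The shares were 27.8% for Eno1, 32% for Pgk1 and 58.5% for Pgam1. By role, 6 of the 15 glycolytic enzymes had under 80% of windows to themselves, against 0 of the 12 TCA cycle enzymes, where the lowest was Cs at 96%. Abundant members with shared windows were Pkm (65.6% to itself), Pdhb (69.7%), Ldhb (73%), Gpi1 (74.7%), Pdha1 (83.1%) and Aldoa (86.5%). Their levels are in doubt too, to a lesser degree. For Pdha1 the gene that shared the most windows was Map3k15, which is not a named copy of it. A low level went without shared windows too, since Hk1, Hk2, the aldolase Aldoc and the mitochondrial isocitrate dehydrogenase Idh2 had no shared window. The levels of Gapdh, Eno1, Pgk1 and Pgam1 are therefore uncertain and are not read as expression.

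The following windows of coding sequence, on the strand of the transcript, show what the counting had to separate. They are from the GENCODE M21 annotation on GRCm38 and are given in lower case throughout, as every base is shared. The Gapdh window lies at chr6:125162898-125162947 on the minus strand and occurs in 84 other annotated genes, 79 of them pseudogenes. The Eno1 window lies at chr4:150245115-150245164 on the plus strand and occurs in 5 other genes, among them Eno1b.
Gapdh: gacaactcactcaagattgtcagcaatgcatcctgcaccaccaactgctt
Eno1: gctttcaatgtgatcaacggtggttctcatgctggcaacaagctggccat

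**Figure D1:**
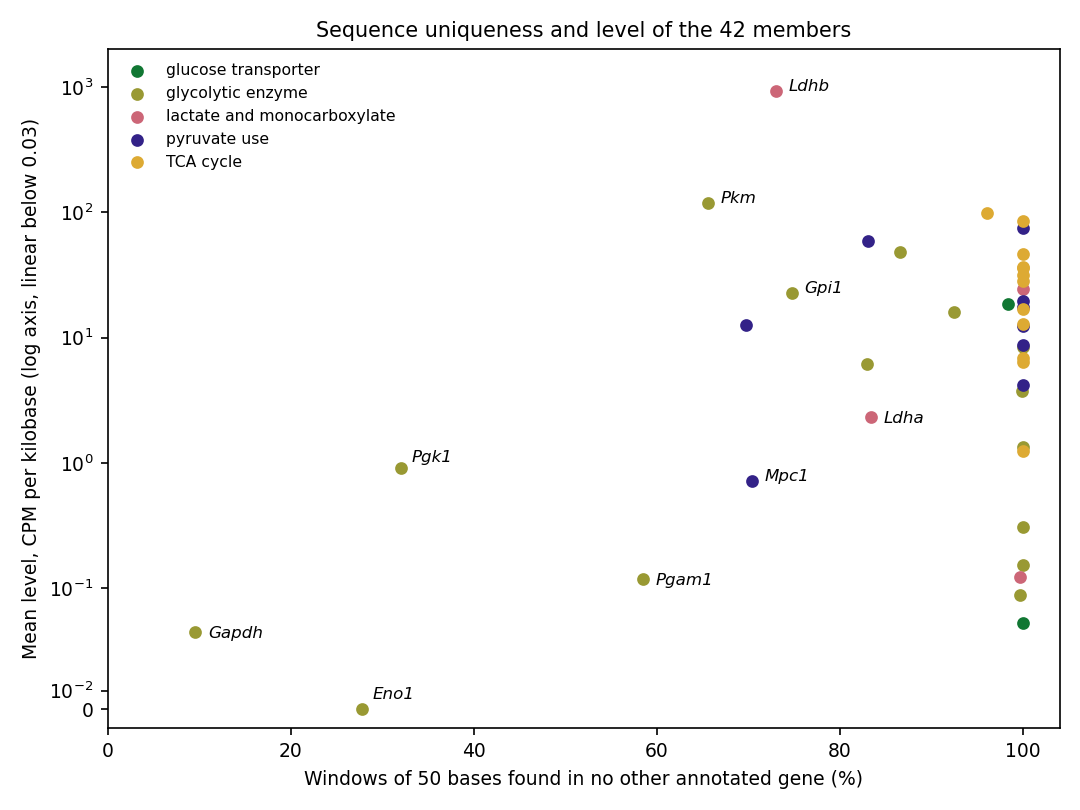
Each point is 1 of the 42 members, with the percentage of its 50-base transcript windows found in no other annotated gene on the x axis and its mean level over 12 pools in CPM per kilobase on the y axis (log scale, linear below 0.03), coloured by role. Gapdh (9.56%), Eno1 (27.8%) and Pgk1 (32%) sit at the left with levels under 1 CPM per kb, whereas all 12 TCA cycle enzymes sit at 96% or above.

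The first comparison asked which members differed between competent and non-competent oocytes, 6 pools against 6. A gene is called here when its adjusted p was at most 0.05 and its change at least 1.5-fold, and 1 of 37 members tested was called, against 15% of all genes tested. It was pyruvate carboxylase, Pcx, which was lower in competent oocytes. With the adjusted p alone, 7 members passed, 2 higher and 5 lower, against 30.7% of all genes. The 2 higher were the TCA cycle enzymes Cs and fumarate hydratase, Fh1. The 5 lower were Pcx, the pyruvate dehydrogenase kinases Pdk1 and Pdk3, and the TCA cycle enzymes Idh3g and Ogdh. No glycolytic enzyme, glucose transporter or lactate gene was among them. The median log2 change was 0.01 over the 37 members and −0.00 over all genes tested. By role the median log2 change was −0.09 for 11 glycolytic enzymes, −0.10 for 9 genes of pyruvate use, 0.06 for 12 TCA cycle enzymes and 0.06 for 4 lactate and monocarboxylate genes. In 4 members, Cs, Fh1, Idh3g and Pdk3, all 6 competent pools lay on one side of all 6 non-competent pools, which was the case for 14.7% of all genes tested.

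**Figure D2:**
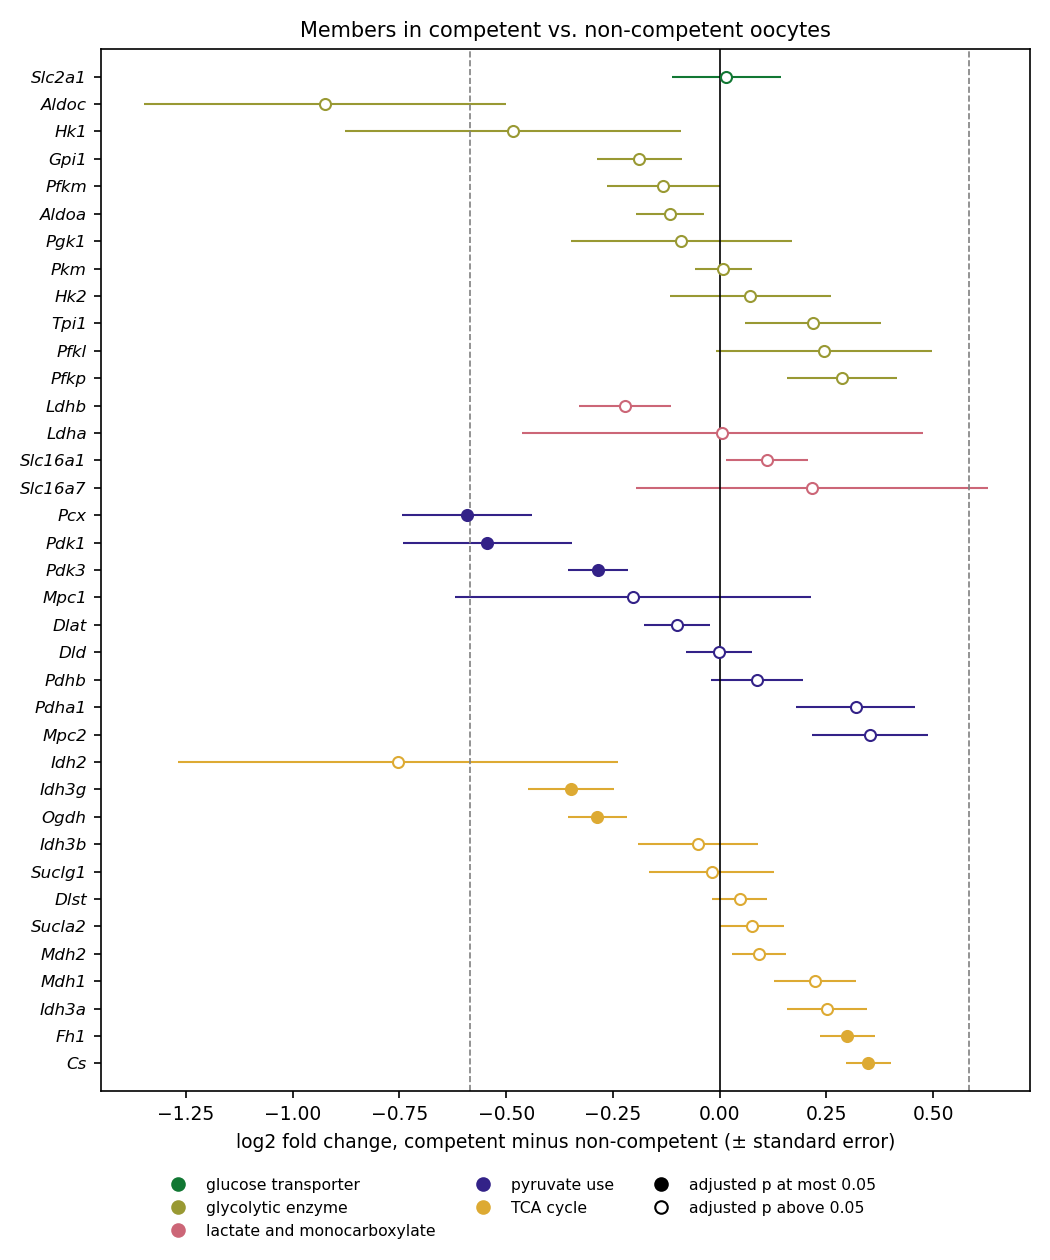
The x axis gives the log2 fold change of each of the 37 members tested, competent minus non-competent, with its standard error as a bar; the rows are genes grouped by role, filled points had an adjusted p of at most 0.05 and dashed lines mark 1.5-fold. The 7 filled points belong to pyruvate use (Pcx, Pdk1, Pdk3) and the TCA cycle (Idh3g, Ogdh, Fh1, Cs), and Pcx alone of them lies past a dashed line.

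Between cohorts, few members were called. PND 16 small and PND 13 differed in 0 of 37 members by edgeR, against 0.373% of all genes. DESeq2 also called 0. An unadjusted p under 0.05 was found in 4 of 37 members, against 2684 of all 13943 genes tested. PND 16 large differed from PND 13 in 1 member, Pcx, against 13.3% of all genes, and PND 40 differed from PND 13 in the same gene, against 18.9%. PND 16 large and PND 16 small were of the same age. They differed in 0 members by edgeR, against 6.19% of all genes, and in 0 by DESeq2. In 9 of 37 members the unadjusted p was under 0.05, against 3934 of all 13943 genes tested. PND 40 differed from PND 16 large in 1 member, the triose phosphate isomerase Tpi1, against 3.66%. PND 40 differed from PND 16 small in 3 members, Tpi1 and the phosphofructokinases Pfkl and Pfkp, all higher at PND 40, against 17.2%. These comparisons share cohorts, so their calls are not independent of one another.

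With the adjusted p alone, the counts were 0, 5, 4, 5, 3 and 12 members in the same order, against 0.925%, 25.6%, 33.1%, 12.3%, 6.83% and 30.2% of all genes. Pools of one cohort all lay on one side of the other in 3, 12, 14, 10, 14 and 15 members in that order, against 18.1%, 45.5%, 50.8%, 31.5%, 39.3% and 43.9% of all genes tested. Cs passed the adjusted p in each of the 4 comparisons between a competent and a non-competent cohort. Fh1 passed it in 3 of them and, for PND 40 against PND 13, had an adjusted p of 0.068.

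**Figure D3:**
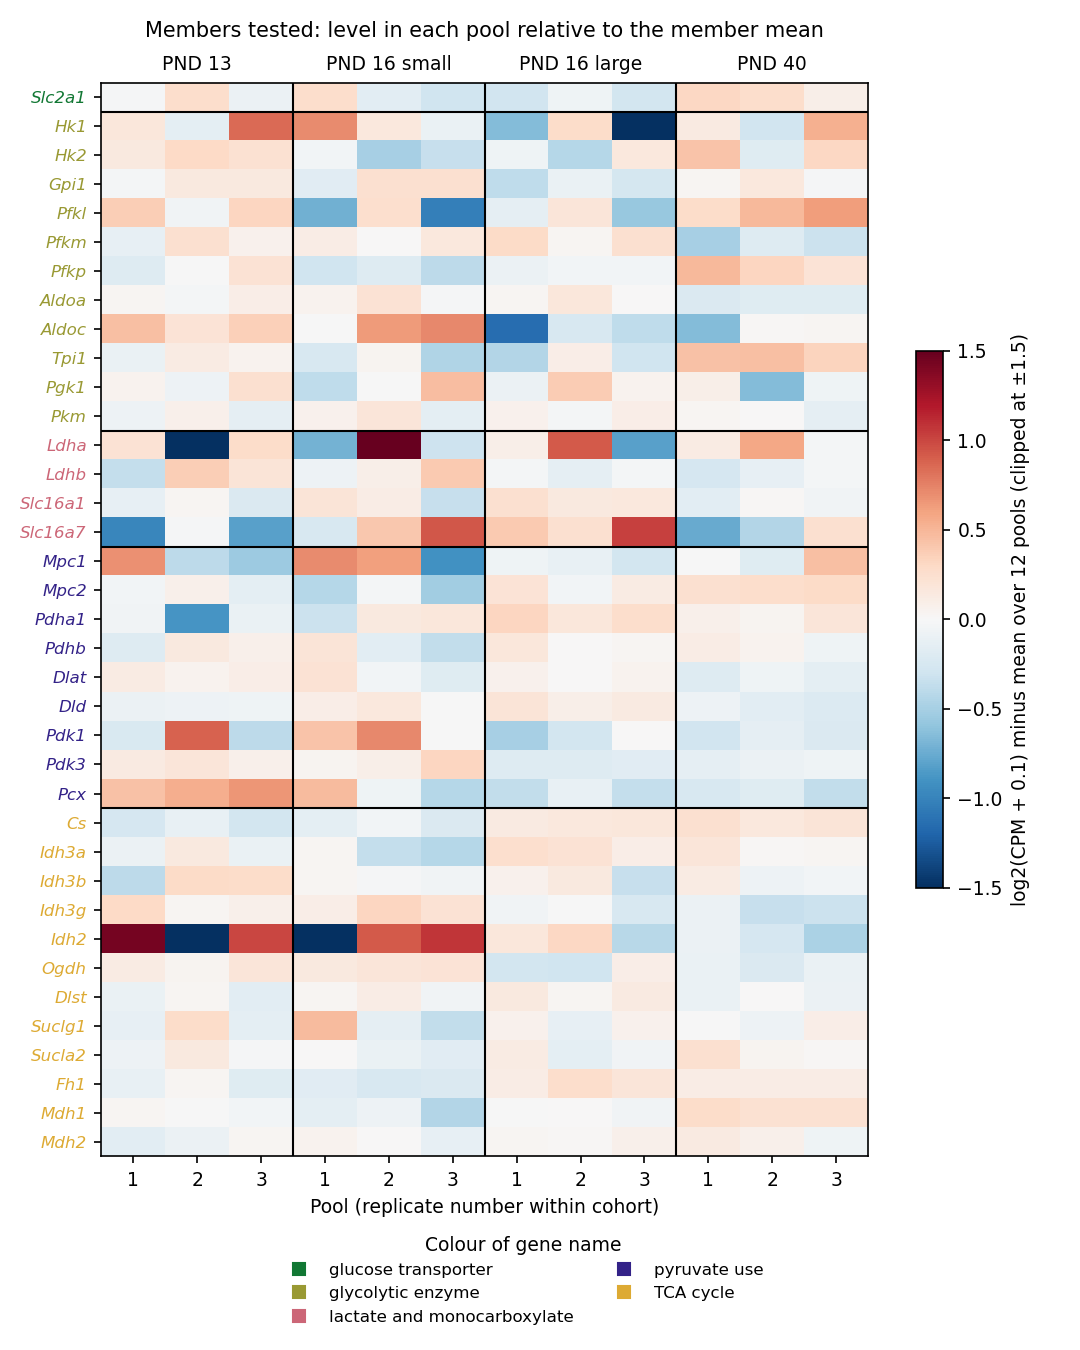
Rows are the 37 members tested, grouped and coloured by role, columns are the 12 pools, and colour gives log2(CPM + 0.1) minus the gene's mean over the pools, clipped at ±1.5. Ldha, Idh2, Hk1, Slc16a7 and Aldoc, all with few counts, spread widely, and Pcx is high in all 3 PND 13 pools, whereas Cs and Fh1 are high in all 6 competent pools.

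Pyruvate carboxylase, the enzyme that carboxylates pyruvate to oxaloacetate, was the only member called between competent and non-competent pools. Pcx was at 66.6, 71.8 and 77.6 CPM in the PND 13 pools and at 68.3, 47.2 and 36.5 CPM in the PND 16 small pools. It was at 38.0, 45.4 and 38.3 CPM in the PND 16 large pools and at 41.5, 43.2 and 38.1 CPM in the PND 40 pools. PND 13 therefore lay wholly above both competent cohorts, while PND 16 small spanned the range, with replicate 1 among the PND 13 values and replicate 3 below every competent pool. The log2 change was −0.83 (SE 0.176, adjusted p = 0.00487) for PND 16 large against PND 13 and −0.82 (SE 0.176, adjusted p = 0.00353) for PND 40 against PND 13. It was −0.51 (SE 0.175, adjusted p = 0.137) for PND 16 small against PND 13, and leaving out PND 16 small replicate 1 gave −0.78 (adjusted p = 0.00466). For competent against non-competent the log2 change was −0.59 (SE 0.152, adjusted p = 0.00923), a 1.51-fold difference in which the groups overlapped. That value was close to the 1.5-fold limit, and the call was lost in 5 of 12 fits that each left out 1 pool, in each of which the change was under 1.5-fold (any PND 13 pool, PND 16 small replicate 1 or PND 40 replicate 3).

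Granulosa marker levels differed among the non-competent pools. At PND 13 the pool with the lowest marker level had 71.8 CPM of Pcx and the pools with high levels 66.6 and 77.6 CPM, and in PND 16 small the pool with the high level had 47.2 CPM and the others 68.3 and 36.5 CPM. Without the 3 pools with the highest marker level, which left PND 13 with 1 pool, the adjusted p for Pcx was 0.0747 for PND 16 large and 0.0632 for PND 40 against PND 13. The log2 changes were then −0.83 and −0.83, and with marker level as a covariate Pcx was called in both. For competence the log2 change of Pcx without those 3 pools was −0.54 (adjusted p = 0.049), under 1.5-fold, and with marker level as a covariate Pcx was called. No window of Pcx was shared with another gene.

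The pyruvate dehydrogenase kinases among the members, Pdk1 and Pdk3, which phosphorylate and inactivate the complex, were both lower in competent oocytes by the adjusted p but not by 1.5-fold. Pdk3 was at 44.6, 46.2 and 43.2 CPM at PND 13 and at 42.2, 43.3 and 51.2 CPM in PND 16 small. It was at 35.5, 35.8 and 36.2 CPM in PND 16 large and at 37.3, 38.3 and 39.1 CPM at PND 40. Every competent pool lay below every non-competent pool, and the PND 16 large pools were within 1 CPM of one another. The log2 change of Pdk3 was −0.29 (SE 0.0709, adjusted p = 0.00755), and PND 16 large was also lower than its same-age partner PND 16 small, by −0.35 (SE 0.0965, adjusted p = 0.0338).

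Pdk1 was more variable. It was at 17.7, 38.4 and 15.8 CPM at PND 13 and at 27.9, 34.2 and 20.7 CPM in PND 16 small, against 14.6 to 20.7 CPM over the 6 competent pools. The groups overlapped, with 2 PND 13 pools and 1 PND 16 small pool inside the competent range, and the log2 change was −0.54 (SE 0.197, adjusted p = 0.0489). With the replicate number as a block its adjusted p was 0.0604, and without the 3 pools with the highest granulosa marker level it was 0.014 at a log2 change of −0.72, past 1.5-fold. Pdk1 was also called with marker level as a covariate and in 4 of 12 fits that each left out 1 pool (PND 13 replicate 1 or 3, PND 16 small replicate 3 or PND 16 large replicate 3). The share of Pdk1 in the length-scaled counts of both kinases was 16.3% ± 1.53 (SD, n = 6) in competent and 18.7% ± 5.63 (SD, n = 6) in non-competent pools, so Pdk3 was the more abundant of the pair throughout. Of the kinases that are not members, Pdk4 was at or under 0.474 CPM in every pool. Pdk2 was at 1.12, 1.83 and 2.57 CPM at PND 40 and at or under 0.332 CPM in both PND 16 cohorts, while the PND 13 pools were at 1.05, 0.0781 and 1.27 CPM. Pdk2 was called higher at PND 40 than in PND 16 small (log2 3.93, SE 1.13, adjusted p = 0.0183) and did not pass between competent and non-competent pools (log2 1.14, SE 0.967, adjusted p = 0.397).

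Pdha1, the catalytic subunit that those kinases act on, was at 157, 88.4 and 152 CPM at PND 13 and at 131, 182 and 184 CPM in PND 16 small. It was at 205, 185 and 196 CPM in PND 16 large and at 173, 169 and 186 CPM at PND 40. All 6 competent pools were above all PND 13 pools, yet the log2 change for PND 16 large against PND 13 of 0.56 (SE 0.191) missed the threshold with an adjusted p of 0.0527. PND 13 replicate 2, the pool with the lowest granulosa marker level, had the lowest Pdha1, the highest Pdk1, and the lowest Ldha and Idh2 at 0.859 and 0.312 CPM. With marker level as a covariate, Pdha1 was called higher against PND 13 in both PND 16 large (log2 0.75, SE 0.105, adjusted p = 0.000363) and PND 40 (log2 0.60, SE 0.104, adjusted p = 0.00071). The part of other cell types in the values of that pool was not tested further.

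The other subunits of the complex did not pass the adjusted p between competent and non-competent pools. Pdhb lay between 14.8 and 21.9 CPM and Dlat, the acetyltransferase, between 61.7 and 82.4 CPM over the 12 pools, and their log2 changes were 0.09 (SE 0.108) and −0.10 (SE 0.0770). Dld, the dehydrogenase that this complex shares with 2-oxoglutarate dehydrogenase, was highest in PND 16 large at 207 ± 7.77 CPM and lowest at PND 40 at 170 ± 7.99 CPM (SD, n = 3 each). It passed the adjusted p as higher in PND 16 large than at PND 13 (log2 0.22, SE 0.0647, adjusted p = 0.0265) and as lower at PND 40 than in PND 16 large (log2 −0.28, SE 0.0647, adjusted p = 0.0201). The competent cohorts thus differed from each other in Dld, and the pooled contrast gave a log2 change of −0.00. Pdhx, the subunit that binds Dld and is not one of the 42 members, was at 136 ± 15.4 CPM in PND 16 small and 201 ± 11.3 CPM at PND 40 (SD, n = 3 each), with a log2 change of 0.56 (SE 0.101, adjusted p = 0.0012) that was under 1.5-fold. Of the carrier subunits, Mpc2 was at 10.6 ± 0.171 CPM at PND 40 and 7.08 ± 1.35 CPM in PND 16 small (SD, n = 3 each), a log2 change of 0.58 (SE 0.173, adjusted p = 0.0216) that was just short of 1.5-fold. Mpc2 was called in that comparison with upper quartile factors or total counts in place of TMM, with no filter, with the marker covariate, with the replicate number as a block, by limma on the authors' values, and without PND 16 small replicate 2 or the 3 pools with the highest marker level, at log2 changes of 0.59 to 0.74. Mpc1 stayed under 1.12 CPM in every pool, and 70.4% of its windows were its own.

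In the TCA cycle, Cs, which condenses acetyl-CoA with oxaloacetate, separated the groups without overlap. Cs was at 239, 262 and 234 CPM at PND 13 and at 257, 275 and 244 CPM in PND 16 small. It was at 311, 316 and 319 CPM in PND 16 large and at 336, 317 and 324 CPM at PND 40. The gap between the highest non-competent and the lowest competent pool was wider than the whole range of the competent pools. The log2 change was 0.35 (SE 0.0531, adjusted p = 0.000321), and at equal age PND 16 large was above PND 16 small by 0.29 (SE 0.0661, adjusted p = 0.0153). PND 16 small did not differ detectably from PND 13 (log2 0.08, SE 0.0661, adjusted p = 0.564).

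Fh1, which hydrates fumarate to malate, also separated the groups. It was at 68.3, 75.4 and 65.1 CPM at PND 13 and at 65.8, 62.4 and 63.6 CPM in PND 16 small. It was at 79.9, 89.0 and 83.9 CPM in PND 16 large, and the PND 40 pools lay between 79.8 and 80.1 CPM. All competent pools were above all non-competent pools, and the log2 change was 0.30 (SE 0.0640, adjusted p = 0.00303). Without the 3 pools with the highest granulosa marker level the log2 change was 0.33 (adjusted p = 0.00374) for Cs and 0.26 (adjusted p = 0.05) for Fh1.

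Idh3g and Ogdh moved in the opposite direction within the same cycle. Idh3g, a regulatory subunit of the NAD-dependent isocitrate dehydrogenase, ranged from 17.2 to 21.2 CPM over the 6 non-competent pools and from 13.3 to 16.9 CPM over the 6 competent pools, a log2 change of −0.35 (SE 0.101, adjusted p = 0.0173). Its partner Idh3a, the catalytic subunit, was higher in PND 16 large than in PND 16 small (log2 0.42, SE 0.117, adjusted p = 0.0324), and its change between competent and non-competent pools of 0.25 (SE 0.0938) had an adjusted p of 0.0538. The second regulatory subunit, Idh3b, gave −0.05 (SE 0.141). Ogdh, the first subunit of the 2-oxoglutarate dehydrogenase complex, ranged from 149 to 167 CPM in non-competent and from 118 to 156 CPM in competent pools, a log2 change of −0.29 (SE 0.0696, adjusted p = 0.00662). Without the 3 pools with the highest granulosa marker level neither passed, with log2 changes of −0.29 (adjusted p = 0.132) for Idh3g and −0.28 (adjusted p = 0.0575) for Ogdh. Within the competent group PND 16 large replicate 3 held the highest Ogdh, and the other 5 pools lay below every non-competent pool. Of the isocitrate dehydrogenase subunits, Idh3g alone passed between competent and non-competent pools.

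The remaining TCA cycle members did not pass the adjusted p between competent and non-competent pools. Cytosolic malate dehydrogenase, Mdh1, was at 42.6, 41.5 and 41.4 CPM at PND 40 against 31.8, 33.5 and 26 CPM in PND 16 small (log2 0.46, SE 0.105, adjusted p = 0.00534). Mitochondrial malate dehydrogenase, Mdh2, lay between 61.0 and 74.8 CPM in all 12 pools, and the cohort means of the succinyl-CoA ligase subunit Suclg1 differed by at most 1.02-fold. Dlst, the succinyltransferase of the 2-oxoglutarate dehydrogenase complex, gave a log2 change of 0.05 (SE 0.0639) between competent and non-competent pools. Idh2 had the widest spread, from 0.312 to 4.87 CPM, and the 2 lowest pools, PND 13 replicate 2 and PND 16 small replicate 1, were also those with the lowest granulosa marker levels.

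**Figure D4:**
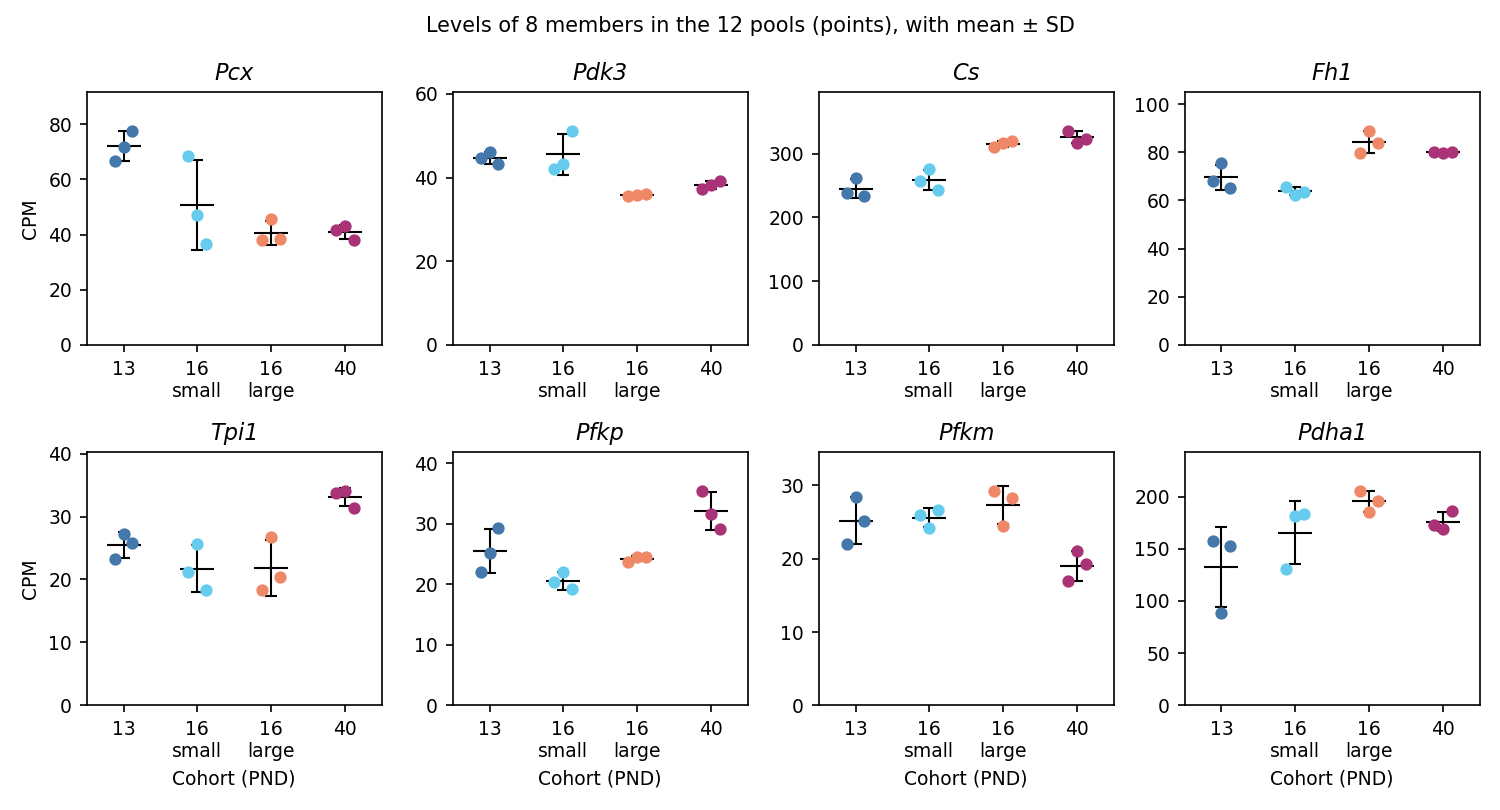
Points are the CPM of 8 members in each of the 12 pools by cohort (x axis, postnatal day), with bars for the mean ± SD of 3 pools and y axes from 0. Pcx is highest at PND 13, Pdk3 is lower and Cs and Fh1 higher in both competent cohorts, Tpi1 and Pfkp are highest and Pfkm lowest at PND 40, and Pdha1 has 1 low PND 13 pool at 88.4 CPM.

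Every glycolytic enzyme that passed the adjusted p did so in a comparison with PND 40, and none did so between competent and non-competent pools. Phosphofructokinase, which commits hexose phosphate to glycolysis, is built from 3 subunits encoded by Pfkm (muscle type), Pfkp (platelet type) and Pfkl (liver type). Pfkm was at 22.1, 28.4 and 25.2 CPM at PND 13, at 25.9, 24.2 and 26.7 CPM in PND 16 small and at 29.2, 24.5 and 28.3 CPM in PND 16 large. At PND 40 it was at 16.9, 21.0 and 19.2 CPM, below each of the other 9 pools. The log2 change of Pfkm was −0.52 (SE 0.129, adjusted p = 0.0298) against PND 16 large, −0.43 (SE 0.130, adjusted p = 0.0237) against PND 16 small and −0.41 (SE 0.129, adjusted p = 0.028) against PND 13, each under 1.5-fold.

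Pfkp went the other way. It was at 22.1, 25.2 and 29.4 CPM at PND 13, at 20.5, 22.1 and 19.2 CPM in PND 16 small and at 23.8, 24.5 and 24.5 CPM in PND 16 large. At PND 40 it was at 35.5, 31.7 and 29.2 CPM, above all PND 16 pools and overlapping PND 13 in 1 pool. Against PND 16 small the log2 change was 0.64 (SE 0.126, adjusted p = 0.00213), against PND 16 large 0.40 (SE 0.125, adjusted p = 0.0701) and against PND 13 0.33 (SE 0.125, adjusted p = 0.058). The share of its windows found in no other gene was 82.9%, the rest lying where it overlaps Pitrm1 on the opposite strand, and whether the counting used strand is not given in the sources used here.

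Pfkl varied more within cohorts than the other subunits. It was at 17.0, 12.6 and 16.5 CPM at PND 13, at 7.92, 15.7 and 6.40 CPM in PND 16 small and at 12, 14.9 and 8.84 CPM in PND 16 large. At PND 40 it was at 15.9, 18.4 and 20.4 CPM, and the PND 40 pools were above all PND 16 pools. The log2 change against PND 16 small was 0.86 (SE 0.291, adjusted p = 0.0403), a call lost in 5 of 6 fits that each left out 1 pool, all but the one without PND 16 small replicate 2. With only the pools compared it was lost too (adjusted p = 0.0785). The call for Pfkp was lost in 2 of 6 such fits, without PND 40 replicate 1 and without PND 16 small replicate 3, in which its change was under 1.5-fold.

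As a share of the length-scaled counts of the 3 subunits, Pfkm made up 46.0% ± 4.43 at PND 13, 54.1% ± 6.51 in PND 16 small and 51.2% ± 4.41 in PND 16 large, but 34.3% ± 2.68 at PND 40 (SD, n = 3 each). Pfkp made up 32.3% ± 2.42, 30.1% ± 0.574 and 31.6% ± 1.40 in the younger cohorts and 40.3% ± 4.83 at PND 40. Pfkl made up 21.8% ± 4.23, 15.9% ± 6.64, 17.2% ± 4.30 and 25.4% ± 2.88 in the same order. Pfkm was the leading subunit in all 9 younger pools, and Pfkp was the leading subunit in all 3 PND 40 pools. Without scaling for length, Pfkp also slightly or clearly exceeded Pfkm in PND 13 replicates 1 and 3 and PND 16 large replicate 2. The shares were not tested.

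**Figure D5:**
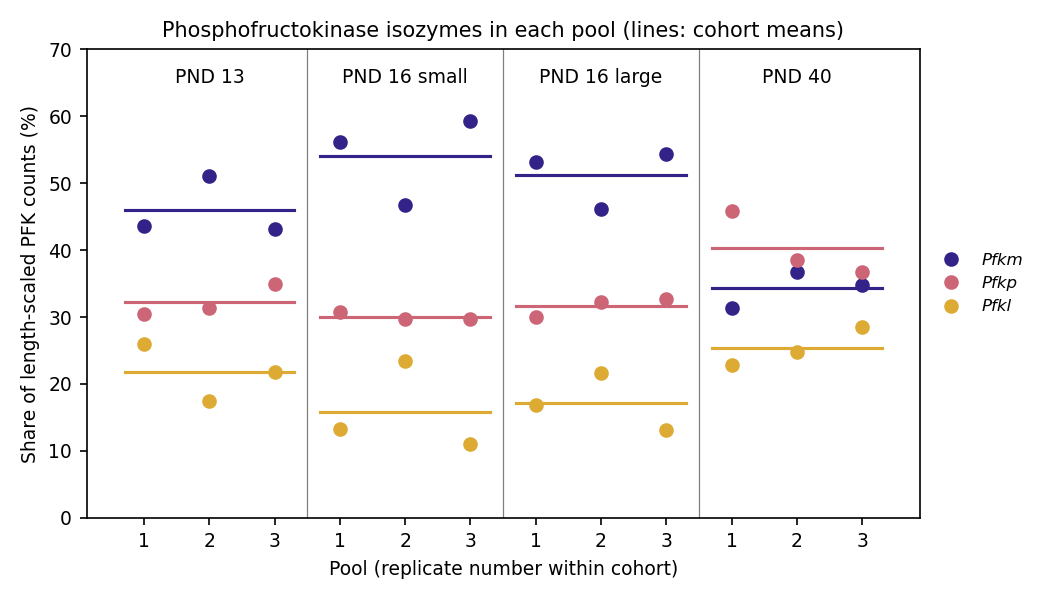
The y axis gives the percentage that each phosphofructokinase subunit contributed to the length-scaled counts of all 3 in each pool (x axis, by cohort), with a line at each cohort mean. Pfkm lies between 43.2% and 59.3% in the 9 younger pools and between 31.4% and 36.7% at PND 40, where Pfkp lies between 36.7% and 45.8%.

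Tpi1, which interconverts the triose phosphates, was at 23.3, 27.3 and 25.9 CPM at PND 13 and at 21.2, 25.6 and 18.3 CPM in PND 16 small. It was at 18.4, 26.7 and 20.3 CPM in PND 16 large and at 33.8, 34.1 and 31.4 CPM at PND 40. The PND 40 pools were above all 9 younger pools. The log2 change was 0.60 (SE 0.155, adjusted p = 0.0353) against PND 16 large, 0.61 (SE 0.155, adjusted p = 0.00986) against PND 16 small and 0.38 (SE 0.154, adjusted p = 0.0769) against PND 13. The first of these was just past 1.5-fold and was lost in 5 of 6 fits that each left out 1 pool, all but the one without PND 16 large replicate 2, and the second in 1 of 6, without PND 16 small replicate 3. Tpi1 had 92.5% of its windows to itself.

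The aldolase Aldoa was lower at PND 40 than in PND 16 small (log2 −0.28, SE 0.0847, adjusted p = 0.0222), with 64.4 ± 0.989 CPM against 78.4 ± 6.66 CPM (SD, n = 3 each). It made up between 99.46% and 99.91% of the length-scaled counts of Aldoa and Aldoc in every pool. Pkm, the last enzyme of the pathway, was level over the cohorts, with means from 277 to 295 CPM and a log2 change of 0.01 (SE 0.0675) between competent and non-competent pools. Glucose phosphate isomerase, Gpi1, was at 54.4 ± 5.32 CPM in PND 16 large against 68.6 ± 4.67 CPM at PND 13 (SD, n = 3 each), which did not pass the test (adjusted p = 0.0522). Hk2 made up between 72.7% and 95.3% of the length-scaled counts of Hk1 and Hk2, and neither hexokinase passed the test in any of the 7 comparisons. Slc2a1 had its highest mean at PND 40, 69.9 ± 5.55 CPM, and its lowest in PND 16 large, 52.0 ± 4.67 CPM (SD, n = 3 each), a log2 difference of 0.43 (SE 0.143, adjusted p = 0.0911).

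Of each pair of lactate genes, one isoform accounted for nearly all counts in every pool. Ldhb, the isoform that favours lactate oxidation, lay between 927 and 1565 CPM in non-competent and between 999 and 1169 CPM in competent pools. It made up between 99.38% and 99.96% of the length-scaled counts of Ldha and Ldhb in every pool. Ldha, the isoform typical of glycolytic tissue, ranged from 0.859 CPM in PND 13 replicate 2 to 11 CPM in PND 16 small replicate 2, the pools with the lowest and the highest summed granulosa marker level. With marker level as a covariate, Ldha was called higher against PND 13 in PND 16 large (log2 1.30, SE 0.365, adjusted p = 0.0169) and at PND 40 (log2 1.33, SE 0.366, adjusted p = 0.0125), where without the covariate the log2 changes were 0.44 (adjusted p = 0.69) and 0.45 (adjusted p = 0.661). Without the 3 pools with the highest marker level, Ldha was called at PND 40 against the 1 PND 13 pool left (log2 2.28, SE 0.682, adjusted p = 0.0477). The monocarboxylate transporter Slc16a1 (MCT1) lay between 84.1 and 126 CPM and exceeded Slc16a7 (MCT2) per length in every pool, with at least 98.8% of their counts. Without the covariate and with all 12 pools, none of these 4 genes passed the test in any of the 7 comparisons.

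To set the pathways against each other, the mean log2 CPM of the glycolytic members was compared with that of the TCA cycle members in each pool. This balance has no meaning as a level, because gene lengths and shared windows enter it, and only its difference between pools is described. Members with few counts weigh in it like abundant ones. For PND 16 large against PND 13, the largest glycolytic changes were those of Aldoc (log2 −1.11, 3 to 14 counts) and Hk1 (log2 −0.90, 7 to 50 counts). Neither passed the adjusted p. Among TCA cycle members, Idh2 (8 to 102 counts) gave −0.69. The medians were −0.22 for glycolytic and −0.01 for TCA cycle members. Over the 11 glycolytic and 12 TCA cycle members that passed the filter it was −1.58 ± 0.0965 at PND 13, −1.70 ± 0.0408 in PND 16 small, −1.89 ± 0.146 in PND 16 large and −1.66 ± 0.0971 at PND 40 (log2, SD, n = 3 each). All PND 16 large pools, at −2.01 to −1.73, lay below all PND 13 pools, at −1.69 to −1.52, and the PND 40 pools, at −1.74 to −1.55, overlapped both. Competent minus non-competent was −0.14, against an SD of 0.169 among the 6 competent and 0.0919 among the 6 non-competent pools. Over all 15 and 12 members the difference was −0.16, against SDs of 0.175 and 0.0649. Of the genes not read as expression, Gapdh, Eno1 and Pgam1 enter only over all members, as does Eno2, and Pgk1 enters both versions. PND 16 large replicate 2, with 33 counts of Eno2, was at −3.21 over all members, and replicates 1 and 3 were at −3.64 and −3.68. Against the 9 genes of pyruvate use, all 15 glycolytic members differed by −0.06 between the groups, with SDs of 0.193 and 0.166. The difference between glycolytic and TCA cycle members was thus smaller than the spread of the competent pools and larger than that of the non-competent pools, and no test was made over the members.

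Genes of the same pathways outside the members were counted by list for competent against non-competent pools, where 15% of all genes tested were called. Of 13 other glycolytic genes tested, 0 were called higher and 1 lower, Pfkfb3, an enzyme that makes the phosphofructokinase activator fructose 2,6-bisphosphate (log2 −0.83, SE 0.202, adjusted p = 0.00714). Of 16 other lactate and pyruvate genes, 1 was called higher and 1 lower. The higher was Emb, which encodes embigin, an ancillary protein of monocarboxylate transporters (log2 1.66, SE 0.327, adjusted p = 0.00186), at 8.96 to 15.4 CPM in competent and 2.05 to 7.73 CPM in non-competent pools. Emb had 77.8% of its windows to itself. The lower was the lactate dehydrogenase Ldhc (log2 −1.5, SE 0.225, adjusted p = 0.000317). None of 10 other TCA cycle genes was called by edgeR. An adjusted p of at most 0.05 was found in 4 of them, against 30.7% of all genes. An unadjusted p under 0.05 was found in 4 as well, against 5865 of all 13943 genes tested. Of 7 pentose phosphate genes, 0 were called higher and 1 lower, the lactonase Pgls (log2 −1.03, SE 0.241, adjusted p = 0.00516).

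The malate-aspartate shuttle carries cytosolic reducing equivalents into mitochondria. Of 6 transaminases and mitochondrial carriers listed with it, 2 were called higher and 1 lower, against 15% of all genes called in either direction. The cytosolic aspartate aminotransferase Got1 was at 4.63 to 11.5 CPM in non-competent and 13.0 to 28.8 CPM in competent pools (log2 1.43, SE 0.271, adjusted p = 0.00149). The aspartate-glutamate carrier Slc25a13 was at 26 to 48.6 CPM and 56.7 to 66.6 CPM (log2 0.71, SE 0.132, adjusted p = 0.0012). The dicarboxylate carrier Slc25a10 was at 4.57 to 9.03 CPM and 2.17 to 3.58 CPM (log2 −1.24, SE 0.208, adjusted p = 0.000605). Over the list, the groups did not overlap in 3 of 6 genes, the same 3, against 14.7% of all genes tested. The calls and the overlap rest on the same pools, so the overlap adds no support to the calls.

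Promoter sequences were available in RefSeq for 39 of the 42 members, as 58 windows of 300 bases reaching from 250 bases before a transcription start to 50 after it (GRCm38.p6). Short motifs were searched on both strands. ACGTG, the core of hypoxia response elements, was found in 25 of 58 windows (43.1%), against 19.6% of all 32851 promoters in the table. CACGTG, an E-box that contains ACGTG, was found in 12.1% against 7.15%, the palindromic NRF1 motif in 8.62% against 4.6%, and the ERR motif TCAAGGTCA in 0 windows against 0.423%. Windows of one gene can overlap, and a match is a description of letters and not of a bound site. Counted by gene, ACGTG was in at least 1 window of 18 of the 39 members (46.2%), against 21.8% of all 27025 genes in the table. The 39 members had 58 windows and those genes 32851, and the background was not matched for windows per gene, base composition or expression in oocytes. By role these were 9 of 15 glycolytic genes, 3 of 9 genes of pyruvate use and 3 of 11 TCA cycle genes. Of the 8 TCA cycle windows with the motif, all but those of Idh3g and Mdh1 belonged to Ogdh and several of them overlapped. The following are promoter windows of the member called lower in competent oocytes and of the 2 TCA cycle enzymes that were higher. Capitals mark ACGTG or CACGTG on either strand. The upstream Pcx window, chr19:4510222-4510521 on the plus strand, held 3 matches to ACGTG counted over both strands, 1 of the places being a CACGTG. The second Pcx window, chr19:4594069-4594368 on the plus strand, held none of the 4 motifs and is not printed. The Cs window, chr10:128337477-128337776 on the plus strand, and the Fh1 window, chr1:175625586-175625885 on the minus strand, held none of the 4 motifs.
Pcx: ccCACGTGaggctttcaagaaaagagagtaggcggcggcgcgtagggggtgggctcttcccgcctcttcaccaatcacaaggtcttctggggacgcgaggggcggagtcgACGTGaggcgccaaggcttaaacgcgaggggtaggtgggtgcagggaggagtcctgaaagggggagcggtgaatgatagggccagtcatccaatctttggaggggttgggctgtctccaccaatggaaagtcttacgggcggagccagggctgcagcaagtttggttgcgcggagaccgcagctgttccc
Cs: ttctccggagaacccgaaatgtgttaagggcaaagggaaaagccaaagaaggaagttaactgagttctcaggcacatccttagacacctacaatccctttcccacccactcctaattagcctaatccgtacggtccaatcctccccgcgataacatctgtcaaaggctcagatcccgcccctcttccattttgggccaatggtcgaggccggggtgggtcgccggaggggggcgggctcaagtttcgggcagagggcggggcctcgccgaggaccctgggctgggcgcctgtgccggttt
Fh1: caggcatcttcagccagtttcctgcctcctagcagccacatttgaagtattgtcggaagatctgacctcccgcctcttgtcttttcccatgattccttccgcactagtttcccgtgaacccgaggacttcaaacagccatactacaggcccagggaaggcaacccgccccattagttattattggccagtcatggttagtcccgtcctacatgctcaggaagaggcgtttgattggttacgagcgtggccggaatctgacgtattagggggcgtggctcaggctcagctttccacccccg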

How the data were processed

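RNA of 12 oocyte pools, 3 from each of 4 cohorts, had been prepared with a directional kit after depletion of ribosomal RNA and sequenced in reads of 50 bases. The submitters' processing notes name FastQC, STAR, HTSeq, DESeq2 and HOMER and the build mm10, without versions, and the study analysed the data on the Rosalind platform. The authors deposited raw counts per gene, which were used for all main results, and the log2 values that the authors deposited (pseudocount 1) were used in 1 alternative. No per-sample column was left unmapped (0). The treatment of reads with several matches and the strand setting of the counting are not given in the sources used here.

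Counts were fitted with edgeR 4.0.16 in R 4.3.3 (robust quasi-likelihood test, TMM factors of 0.955 to 1.07, filterByExpr with a minimum count of 10), with all 12 pools in one model and Benjamini-Hochberg adjustment over 13943 genes. Pairwise contrasts came from a model of 4 cohorts and the competence contrast from a model of 2 groups. Calls needed both an adjusted p no higher than 0.05 and a change of 1.5-fold or more. Alternatives used DESeq2 1.42.0, limma 3.58.1, other scalings, filters and sets of pools, a granulosa marker covariate and a replicate block. The fit was tested on simulated data. Window uniqueness was computed on GENCODE M21 transcripts (GRCm38) by exact match. Isozyme shares were taken from counts divided by transcript length, and an enolase share was not computed because Eno1 had 0 counts in every pool.

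The members and lists were chosen with earlier results of these data known. Values in every pool were given for members called for competence or in at least 2 comparisons, for their partner isozymes and for abundant members of each role. Cs, Fh1, Pdk3, Pdha1, Tpi1 and Mdh1 were given in more detail after their values were seen. Pools of a cohort differed beyond counting error (chi-square per gene 9.24 to 50.2). The p-values measure the spread between pools. The paper states that 3 mice per condition gave the 3 pools, and nothing in the labels ties a pool to 1 animal.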

Additional observations from a re-analysis of the deposited data

Results flagged for a closer look

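Of 94 groups of 6 pools examined for a pool far from the rest, 3 held one, where chance alone gives about 1 in 20 groups. Mpc1 in the competent pools had its highest pool, PND 40 replicate 3 at 0.918 CPM, set apart from the other 5 at 0.517 to 0.643 CPM, with a gap of 0.628 of the whole log2 range. The Pfkp share of the phosphofructokinase subunits in the non-competent pools was 35% in PND 13 replicate 3 against 29.7% to 31.4% in the other 5, a gap of 0.672 of the range. The Slc16a1 share of both monocarboxylate transporters in the non-competent pools was 98.8% in PND 16 small replicate 3 against 99.4% to 99.8% in the other 5, a gap of 0.626 of the range.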

How the results depend on the processing

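With the adjusted p alone, without the 1.5-fold criterion, the members called numbered 5 for PND 16 large against PND 13, 4 for PND 40 against PND 13, 5 for PND 16 large against PND 16 small, 3 for PND 40 against PND 16 large, 12 for PND 40 against PND 16 small and 7 for competent against non-competent. With the granulosa marker level as a covariate the first 2 of these comparisons gave 3 members each (Ldha and Pdha1 higher, Pcx lower) and competence gave 2 (Pcx and Pdk1 lower). Without the 3 pools with the highest marker level, an alternative chosen after seeing the data, they gave 2 (Pdha1 higher, Pdk1 lower) and 4 (Ldha and Pdha1 higher, Pdk1 and Pfkm lower), with 1 PND 13 pool left, assumed to vary like the others. In that setting Pcx was no longer called for competence and Pdk1 was (log2 −0.72, adjusted p = 0.014). With only the pools compared, PND 40 against PND 16 large gave 2 members (Pfkl and Tpi1), and for PND 40 against PND 16 small Pfkl was no longer called and Pdk1 was (log2 −0.64, adjusted p = 0.037). For competence, a contrast of cohort means and limma on the authors' log2 values each gave 0. Unscaled for length, the mean shares over all pools were 39.9% for Pfkp and 33.9% for Pdk1. The cause of these changes was not tested beyond what each setting leaves out. Shares of all genes are given above for the main fit and for the adjusted p alone, and not for the other settings. Counts under those settings are therefore not read as a result about the members.

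Fits that each left out 1 pool gave 0 to 1 members for PND 16 small against PND 13 (1 without PND 16 small replicate 1), 1 to 2 for PND 16 large against PND 13 (2 without PND 13 replicate 1), 0 to 2 for PND 40 against PND 16 large (0 without PND 16 large replicate 1 or 3 or any PND 40 pool), 0 to 4 for PND 40 against PND 16 small (1 without PND 40 replicate 1, 0 without PND 16 small replicate 3) and 0 to 2 for competence (0 without PND 13 replicate 2, PND 16 small replicate 1 or PND 40 replicate 3). PND 40 against PND 13 gave 1 in each fit and for PND 16 large against PND 16 small 0. The replicate number as a block gave 0, 1, 1, 0, 1, 4 and 1 members in the order PND 16 small against PND 13, PND 16 large against PND 13, PND 40 against PND 13, PND 16 large against PND 16 small, PND 40 against PND 16 large and PND 16 small, and competence. The numbers did not pair the pools, since deviations of same-numbered pools correlated at −0.442 to 0.0753, with 0 of 18 pairs over 0.1. No alternative turned the direction of change of a member that passed the adjusted p in the main fit. Genes outside the members were not followed under the alternatives, and no share of all genes is given beside these counts. Members with few counts had wide errors, as the standard errors for competence of Hk1 (0.394), Slc16a7 (0.412), Mpc1 (0.417), Ldha (0.470) and Idh2 (0.516) on the log2 scale allow only large differences to pass, and the part of depth in them was not tested.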

Other observations

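Bisphosphoglycerate mutase, Bpgm, was the most abundant of the other glycolytic genes, at 924 to 1099 CPM in the non-competent and 1204 to 1287 CPM in the competent pools. Fbp2, a fructose bisphosphatase, was called higher at PND 40 than at PND 13 (log2 0.79, SE 0.231, adjusted p = 0.0187) and than in PND 16 small (log2 0.72, SE 0.231, adjusted p = 0.0308). Mitochondrial aspartate aminotransferase, Got2, was called higher than at PND 13 in PND 16 large (log2 0.61, SE 0.178, adjusted p = 0.0229) and at PND 40 (log2 0.68, SE 0.178, adjusted p = 0.0101). Only 52.8% of the Got2 windows occurred in no other annotated gene, a share below that of Pgam1, so the level of Got2 is in doubt.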
